A study of Rattus norvegicus with 12 samples.

Results

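The genes described here encode ligands that act on blood vessels, 1 receptor of such a ligand and the oxygen-regulated subunit of a hypoxia factor. They were chosen by name as Vegfa, Vegfb, Vegfc, Vegfd, Pgf, Angpt1, Angpt2, Apln, Aplnr and Hif1a, by a rule with no measured threshold but with earlier results of these data known. Of these 10 genes, 8 had a row in the count table under their own name and all 8 passed the filter on low counts, among 18182 genes tested of 30560 listed. Vegfd and Apln were not analysed here, so neither the other lymphatic VEGF ligand nor the ligand of Aplnr has a value below.

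RNA came from formalin-fixed, paraffin-embedded sections, 20 µm thick, through the middle of the left ventricle of male Wistar rats, with 1 library per rat. Sham rats (n = 4) had the chest opened without a coronary ligature, at 7 weeks of age, and were gavaged with a carboxymethylcellulose vehicle. MI rats (n = 4) had a permanent ligation of the left anterior descending coronary artery and the same vehicle. MI + UA rats (n = 4) had the same ligation and received urolithin A (UA), a gut microbial metabolite known as an inducer of mitophagy, by daily gavage, and dosing lasted 8 weeks in all groups. The sources differ on the UA dose and on the day dosing began. Rats with small infarcts had been excluded at the first echocardiography, and the section holds whatever mix of scar and surviving muscle the middle region held. Rat 66 carries a UA label but stands with the vehicle-treated MI rats in a supplementary list. It was counted as MI + UA, and values with it left out or counted in MI are given where they matter. A further MI + UA library, left out by the authors, was not analysed here.

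The VEGF ligands share a fold and divide the labour among their receptors. Vegfa binds Flt1 and Kdr and drives blood vessel growth, Vegfb and Pgf bind Flt1, and Vegfc acts mainly through Flt4 on lymphatic vessels. Angpt1, made largely by cells around the vessel, activates the endothelial receptor Tek (Tie2) and keeps vessels quiet, while Angpt2, released by endothelium, can oppose it. Aplnr is the receptor of apelin on endothelium and heart muscle. Hif1a encodes the HIF subunit whose protein is hydroxylated and degraded when oxygen is present, so its mRNA is not a measure of that protein, and Vegfa is among its best known target genes.

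Reads assigned to genes numbered from 6228706 to 8958828 in Sham rats, from 6829591 to 12743184 in MI rats and from 6819444 to 19031695 in MI + UA rats, and mitochondrially encoded genes took 50.2% to 58.6% of them. Levels are CPM, the reads of a gene scaled to a common library size after TMM scaling, and differences are log2 fold changes from edgeR's quasi-likelihood test with its standard error (SE). A gene was called when its Benjamini-Hochberg adjusted p over all 18182 genes was under 0.05. The p-values measure the spread between these rats. In bulk tissue, fewer cells of a type and less RNA per cell cannot be told apart. Markers of the cells in the section moved with the groups: all 9 tested cardiomyocyte markers fell in MI versus Sham, beside 5.53% of all genes, with summed levels of 49410.4 to 55578 CPM in Sham, 34018 to 40039.9 CPM in MI and 36094 to 47699 CPM in MI + UA. Of the 9 fibroblast markers 7 rose, beside 5.82% of all genes, with sums of 1189 to 1495, 2316 to 4018 and 2383 to 4127 CPM in the same order of groups. Of 12 endothelial markers tested, 2 fell (Kdr and Sox18), and their sums overlapped (1019.6 to 1134 CPM in Sham, 959 to 1119 CPM in MI and 876 to 1069.8 CPM in MI + UA). No marker of these 3 lists was at 0 in any library. The part of cell makeup in the results below was not tested.

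Angpt1 and Vegfb, 2 of the 8 genes, fell in MI versus Sham, and none rose at the adjusted threshold. These 2 of 8 stand beside 11.4% of all genes tested that were called in MI versus Sham, 5.82% higher and 5.53% lower. At an unadjusted p under 0.05, 5 of the 8 genes passed, beside 23.9% of all genes. The median log2 fold change of the 8 genes was -0.14, against 0.03 for all genes tested. Between MI + UA and MI, edgeR called 0 of the 8 genes and 0 of all genes (0%), and DESeq2 also called 0 of all genes. At an unadjusted p under 0.05 that comparison gave 1 of the 8 genes (Angpt1) and 689 of all genes, or 3.79%. Between MI + UA and Sham, 1 of the 8 genes was called (Aplnr, lower), beside 9.44% of all genes tested (5.16% higher and 4.27% lower), and 3 of the 8 passed at an unadjusted p under 0.05, beside 21.8% of all genes.

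**Figure D1:**
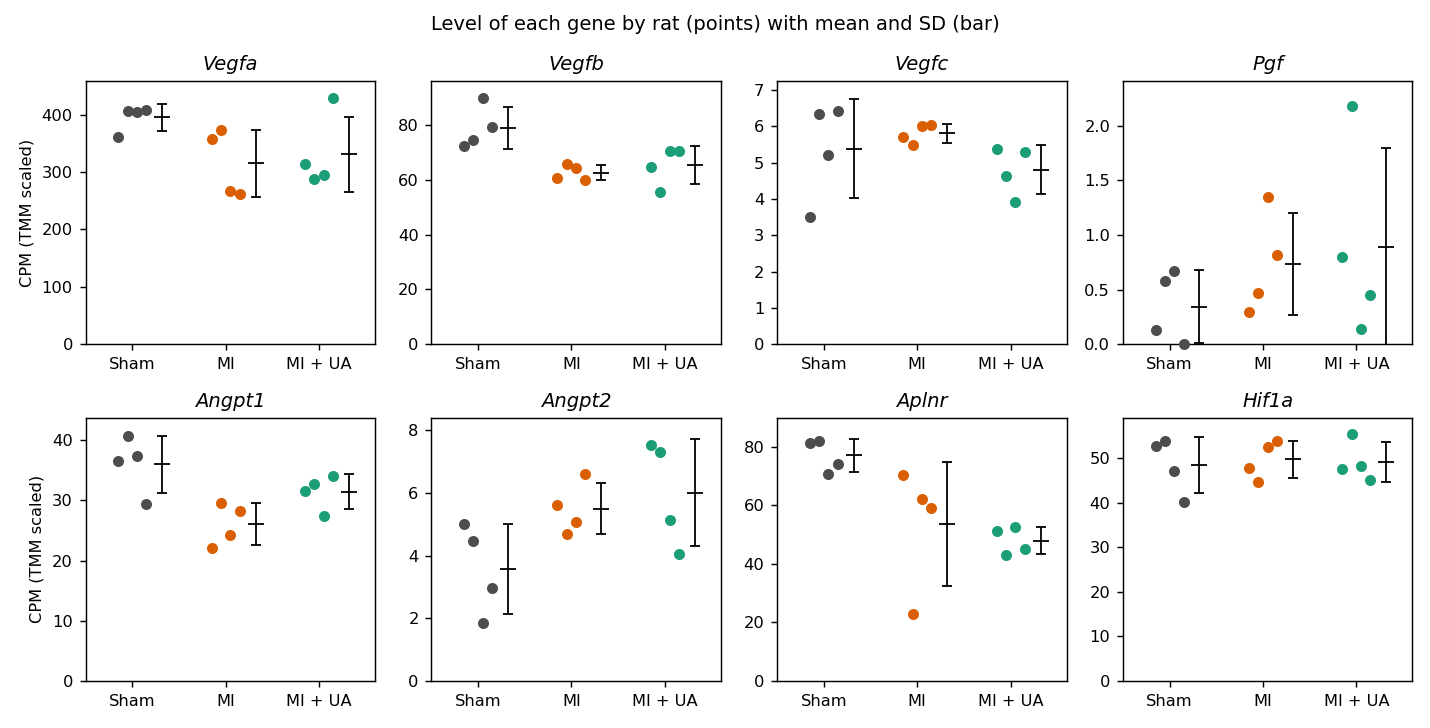
Level of the 8 genes in each rat, with 1 panel per gene, the 3 groups on the horizontal axis and TMM-scaled CPM on a linear vertical axis from 0. Points are rats, and the bar beside them is the group mean with its SD (n = 4). The MI rats lie below every Sham rat for Vegfb and Aplnr, Hif1a is level across groups, and the points of Pgf spread most relative to their mean.

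Vegfb, a ligand of Flt1 that is abundant in heart muscle, fell after infarction. Its level was 72.5, 74.6, 89.9 and 79.3 CPM in Sham rats 12, 17, 32 and 38, and 60.8, 66.02, 64.2 and 60.0 CPM in MI rats 36, 57, 61 and 89. Every MI rat was below every Sham rat. The log2 fold change was -0.33 (SE 0.09, edgeR adjusted p = 0.0216), which puts MI at 79.3% of Sham. In MI + UA rats 29, 58, 64 and 66 it was 64.7, 55.7, 70.6 and 70.6 CPM, again below every Sham rat and on both sides of the MI rats. The MI + UA difference from MI was 0.06 on the log2 scale (95% interval -0.13 to 0.26), and that from Sham was -0.27 (SE 0.09, edgeR adjusted p = 0.0718). The call in MI versus Sham held under all 7 other settings but not when 1 of 4 rats was left out: Sham rat 32 (adjusted p = 0.0953), Sham rat 38 (0.0544), MI rat 36 (0.0530) or MI rat 89 (0.0678). In MI + UA versus Sham, DESeq2 called it (adjusted p = 0.0395), and so did edgeR without rat 66 (0.0499). With rat 66 counted in MI it was not called there (edgeR adjusted p = 0.0577). The fit without rat 66 was the only 1 of 8 leaving out a rat that called it (adjusted p up to 0.238).

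Vegfa, the main ligand of vessel growth, had nearly the same mean difference as Vegfb but a wider spread, and was not called. Sham rats 12, 17, 32 and 38 had 361, 406, 405 and 408 CPM. The MI rats fell apart into rats 36 and 57 at 357 and 373 CPM and rats 61 and 89 at 267 and 262 CPM. MI rat 57 was the only MI rat above a Sham rat. The log2 fold change was -0.33 (SE 0.13, edgeR adjusted p = 0.104), and Vegfa passed the threshold without MI rat 57 (-0.42, adjusted p = 0.0405), with no filter on low counts (adjusted p = 0.0460) and with only these groups in the fit (adjusted p = 0.0361). In MI + UA, rats 29, 58 and 64 had 314, 287 and 294 CPM, while rat 66 had 428 CPM, above every Sham rat. Rat 66 also had the highest summed cardiomyocyte markers of the MI + UA group, at 47699 CPM, and the part of that in its Vegfa level was not tested. The MI + UA difference from MI was 0.07 on the log2 scale (95% interval -0.19 to 0.33), and it was -0.18 with rat 66 counted in MI. Against Sham it was -0.25 (SE 0.13, edgeR adjusted p = 0.245). Without rat 66 that difference was -0.41 (adjusted p = 0.0206). With rat 66 counted in MI it was -0.40 and not called (edgeR adjusted p = 0.0536). The MI versus Sham difference was then -0.23 (edgeR adjusted p = 0.237).

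The promoter sequences of Vegfb, Vegfa and Hif1a are shown because the hypoxia factor binds a short core, ACGTG or GCGTG, and these genes hold a called ligand, a best known target of the factor and the factor itself. Each runs from 250 bases before to 50 bases after the start of the gene on the strand of the gene, from RefSeq on build GRCr8, which is not the build of the counts (mRatBN7.2). Capitals mark a core on either strand. Vegfb lies at chr1:213607103-213607402 on the minus strand, the first of 2 Vegfa entries at chr9:22452604-22452903 on the plus strand and Hif1a at chr6:98359648-98359947 on the plus strand.
Vegfb: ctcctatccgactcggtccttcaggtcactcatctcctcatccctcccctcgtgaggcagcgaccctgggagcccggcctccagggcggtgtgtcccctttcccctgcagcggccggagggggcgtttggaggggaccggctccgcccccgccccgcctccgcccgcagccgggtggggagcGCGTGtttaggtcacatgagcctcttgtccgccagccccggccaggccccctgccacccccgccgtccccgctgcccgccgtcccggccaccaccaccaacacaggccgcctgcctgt
Vegfa: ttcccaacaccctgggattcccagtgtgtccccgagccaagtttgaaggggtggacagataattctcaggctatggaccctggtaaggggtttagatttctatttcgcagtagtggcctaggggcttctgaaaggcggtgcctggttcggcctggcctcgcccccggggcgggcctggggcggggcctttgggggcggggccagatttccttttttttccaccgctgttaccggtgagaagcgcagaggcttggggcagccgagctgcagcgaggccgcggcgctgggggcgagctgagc
Hif1a: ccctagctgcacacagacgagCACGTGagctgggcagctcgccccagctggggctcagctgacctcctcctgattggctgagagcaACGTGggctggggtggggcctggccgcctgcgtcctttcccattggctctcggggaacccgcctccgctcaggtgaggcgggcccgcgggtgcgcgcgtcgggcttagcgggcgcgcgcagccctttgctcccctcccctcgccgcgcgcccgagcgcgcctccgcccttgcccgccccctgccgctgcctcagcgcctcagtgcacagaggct
The Vegfb window held 1 GCGTG, 68 bases upstream of the start. The Hif1a window held 3 ACGTG matches, of which 2 overlap on opposite strands as the palindrome CACGTG, 229 and 228 bases upstream, and the third lay 164 bases upstream. No core stood in either Vegfa window, which says only that these letters are not within them. Of the 10 genes, 7 had a promoter entry and 3 of those (Vegfb, Pgf and Hif1a) held a core, while 41.6% of all 33469 promoter windows of that length did (19.3% with ACGTG, 29.7% with GCGTG and 6.42% with CACGTG). Angpt1, Angpt2 and Aplnr had no entry.

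Vegfc, the lymphatic ligand, was measured at a low level. Sham rats 12, 17, 32 and 38 had 3.51, 6.35, 5.22 and 6.44 CPM, and MI rats 36, 57, 61 and 89 had 5.70, 5.49, 6.02 and 6.03 CPM. The groups overlapped, with a log2 fold change of 0.12 (SE 0.19, edgeR adjusted p = 0.791). MI + UA rats 29, 58, 64 and 66 had 5.37, 4.62, 3.92 and 5.29 CPM, each below every MI rat. It was the 1 gene of the 8 whose MI + UA and MI rats did not overlap, beside 2.34% of all genes tested (1.16% lower). The difference was -0.25 on the log2 scale (SE 0.19, 95% interval -0.64 to 0.14, edgeR adjusted p = 1.00), and against Sham it was -0.14 (SE 0.19), or -0.30 without Sham rat 12 and -0.031 without Sham rat 38. The lowest Vegfc library, Sham rat 12, rested on 28 reads.

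Pgf, a ligand of Flt1, stood near the limit of detection. Sham rats 12, 17, 32 and 38 had 1, 4, 4 and 0 reads, MI rats 36, 57, 61 and 89 had 4, 3, 13 and 10 reads, and MI + UA rats 29, 58, 64 and 66 had 14, 17, 1 and 8 reads. The 0 in Sham rat 38 allows a level of up to 0.358 CPM. Summed over each group, the level was 0.308 CPM in Sham (95% exact Poisson interval 0.141 to 0.585), 0.715 CPM in MI (0.482 to 1.02) and 0.793 CPM in MI + UA (0.566 to 1.08), intervals that cover counting error only. The rats overlapped in every comparison. The log2 fold changes were 1.17 in MI versus Sham (SE 0.83, edgeR adjusted p = 0.428) and 1.39 in MI + UA versus Sham (SE 0.81, edgeR adjusted p = 0.339). Leaving out 1 rat moved them from 0.71 (without Sham rat 38) to 1.69 (without Sham rat 32) and from 0.66 (without MI + UA rat 58) to 1.90 (without Sham rat 32), with no call. Between MI + UA and MI the difference was 0.22, with a 95% interval from -1.18 to 1.61. The spread between MI + UA rats, from 1 to 17 reads, was wide (coefficient of variation 101%).

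Angpt1, the ligand that activates Tek, fell after infarction. Sham rats 12, 17, 32 and 38 had 36.5, 40.7, 37.4 and 29.4 CPM, and MI rats 36, 57, 61 and 89 had 22.2, 29.6, 24.2 and 28.2 CPM. Sham rat 38, the lowest Sham rat, was just under MI rat 57, the highest MI rat, and all other pairs were separate. The log2 fold change was -0.47 (SE 0.12, edgeR adjusted p = 0.0101), or 72.1% of Sham. The call held in all 8 fits that left out 1 rat (adjusted p 0.00514 to 0.0448) and under all 7 other settings (0.00288 to 0.0494).

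In MI + UA, Angpt1 lay between the other groups. Rats 29, 58, 64 and 66 had 31.7, 32.8, 27.3 and 34.0 CPM, and 14 of 16 pairs of an MI + UA and an MI rat were higher in MI + UA. The difference from MI was 0.28 on the log2 scale (SE 0.11, 95% interval 0.05 to 0.52), with an unadjusted edgeR p of 0.0215 and an adjusted p of 1.00, so it did not pass. With rat 66 counted in MI it was 0.15. The difference from Sham was -0.19 (SE 0.11, edgeR adjusted p = 0.365), and the ranges of MI + UA and Sham overlapped.

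Angpt2, the context-dependent partner of Angpt1, ran the other way without being called. Sham rats 12, 17, 32 and 38 had 5.02, 4.47, 1.85 and 2.98 CPM, and MI rats 36, 57, 61 and 89 had 5.63, 4.70, 5.09 and 6.60 CPM. All but 1 of the 16 MI and Sham pairs were higher in MI, with a log2 fold change of 0.61 (SE 0.26, edgeR adjusted p = 0.153). MI + UA rats 29, 58, 64 and 66 had 7.54, 7.32, 5.14 and 4.05 CPM, spread around the MI rats. The difference from MI was 0.11 (95% interval -0.39 to 0.60), and that from Sham was 0.72 (SE 0.26, edgeR adjusted p = 0.0923). Rat 66 was the lowest of its group, and Angpt2 passed in MI + UA versus Sham without it (0.89, adjusted p = 0.0279) or with it counted in MI (0.89, adjusted p = 0.0321).

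The ratio of Angpt2 to Angpt1 within each library does not depend on library scaling. Its log2 value was -2.84, -3.16, -4.26 and -3.26 in Sham rats 12, 17, 32 and 38 and -1.96, -2.63, -2.23 and -2.08 in MI rats 36, 57, 61 and 89. Every MI rat was above every Sham rat. The means were -2.22 ± 0.29 in MI and -3.38 ± 0.62 in Sham (SD, n = 4), a difference of 1.16 (two-sided exact permutation p = 0.0286, the smallest that 4 against 4 allow). Adjusted over the 9 ratio tests made, this p was 0.257, so the ratio did not pass. In MI + UA the mean was -2.41 ± 0.44 (SD, n = 4), a difference of -0.18 from MI (exact permutation p = 0.571) and of 0.97 from Sham (exact permutation p = 0.0571, adjusted 0.257). Without rat 66 or with it counted in MI, the difference between MI + UA and MI turned positive, at 0.03 and 0.19.

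The ratio of Vegfa to Vegfb had nearly the same mean in all groups. Its mean log2 value was 2.32 ± 0.11 in Sham, 2.31 ± 0.25 in MI and 2.32 ± 0.22 in MI + UA (SD, n = 4), and the exact permutation p-values ran from 0.886 to 1.00. MI rats 61 and 89, the low Vegfa rats, were also the low ones for this ratio. That repeats their Vegfa levels, since Vegfb varied little among the MI rats (60.0 to 66.02 CPM). The ratio of Pgf to Vegfa rested on the few Pgf reads, and its differences of 1.51, -0.11 and 1.40 had exact permutation p-values of 0.171, 0.914 and 0.257.

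**Figure D2:**
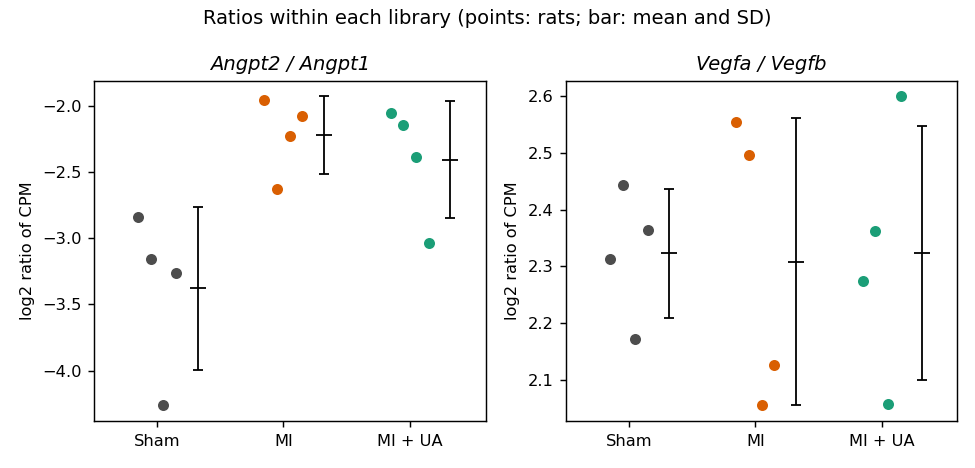
The log2 ratio of Angpt2 to Angpt1 (left) and of Vegfa to Vegfb (right) in each rat by group, with points for rats and a bar for the group mean with SD (n = 4). The vertical axes differ and do not start at 0. The 4 MI points of Angpt2 to Angpt1 lie above the 4 Sham points, while the Vegfa to Vegfb points of all groups share 1 range.

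Every rat of both infarct groups had less Aplnr, the apelin receptor, than every Sham rat, and only the MI + UA difference from Sham passed. Sham rats 12, 17, 32 and 38 had 81.3, 82.1, 70.5 and 74.2 CPM, and MI rats 36, 57, 61 and 89 had 70.4, 22.9, 62.2 and 58.9 CPM. No MI rat reached a Sham rat, although MI rat 36 came just under the lowest, and MI rat 57 stood far below all other rats. With Vegfb, Aplnr made 2 of the 8 genes without overlap between MI and Sham, beside 15.7% of all genes tested (7.56% lower). The log2 fold change was -0.50 (SE 0.19, edgeR adjusted p = 0.108). It was -0.27 without MI rat 57 (adjusted p = 0.0844) and -0.66 without MI rat 36 (adjusted p = 0.0397), and it passed with no filter on low counts (adjusted p = 0.0237). Over the 12 endothelial markers tested, MI rat 57 lay below every Sham rat for 6 (Kdr, Sox18, Cdh5, Emcn, Egfl7 and Tie1), within the Sham range for 3 (Pecam1, Erg and Sox17) and above every Sham rat for 3 (Vwf, Eng and Esam). Their sum in that rat was 959 CPM, against 1019.6 to 1134 CPM in Sham. The part of endothelial content in its Aplnr level was not tested.

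MI + UA rats 29, 58, 64 and 66 had 51.1, 42.9, 52.6 and 45.1 CPM of Aplnr, a narrow range below every Sham rat. The log2 fold change against Sham was -0.68 (SE 0.20, edgeR adjusted p = 0.0300), or 62.2% of Sham. Vegfb and Aplnr were again the 2 of 8 genes without overlap, beside 14.3% of all genes tested (6.46% lower). The call was kept in only 1 of 8 fits that left out a rat, that without rat 64 (adjusted p = 0.0470). It was lost without Sham rat 12 (0.0733), 17 (0.0770), 32 (0.0525) or 38 (0.0629) and without MI + UA rat 29 (0.0527), 58 (0.0797) or 66 (0.0563), while the log2 fold change stayed between -0.73 and -0.64. It was also lost with DESeq2 (adjusted p = 0.0843) and with rat 66 counted in MI (0.0590). The MI + UA difference from MI was -0.18 (95% interval -0.59 to 0.23, edgeR adjusted p = 1.00) and turned on MI rat 57. The other MI rats lay above every MI + UA rat, and without rat 57 the difference was -0.41 (edgeR adjusted p = 0.736, unadjusted 0.000408). Without MI rat 36 it was -0.024.

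Hif1a mRNA was level across the groups. Sham rats had 52.8, 53.8, 47.1 and 40.2 CPM, MI rats 47.9, 44.7, 52.4 and 53.9 CPM and MI + UA rats 47.5, 55.5, 48.3 and 45.0 CPM, in the order of rats used above. The log2 fold change was 0.04 in MI versus Sham (95% interval -0.17 to 0.25, edgeR adjusted p = 0.872), -0.03 in MI + UA versus MI (-0.24 to 0.18) and 0.01 in MI + UA versus Sham (-0.20 to 0.23). These intervals leave room for a change of up to 19.2% higher or 11.3% lower in MI than in Sham.

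**Figure D3:**
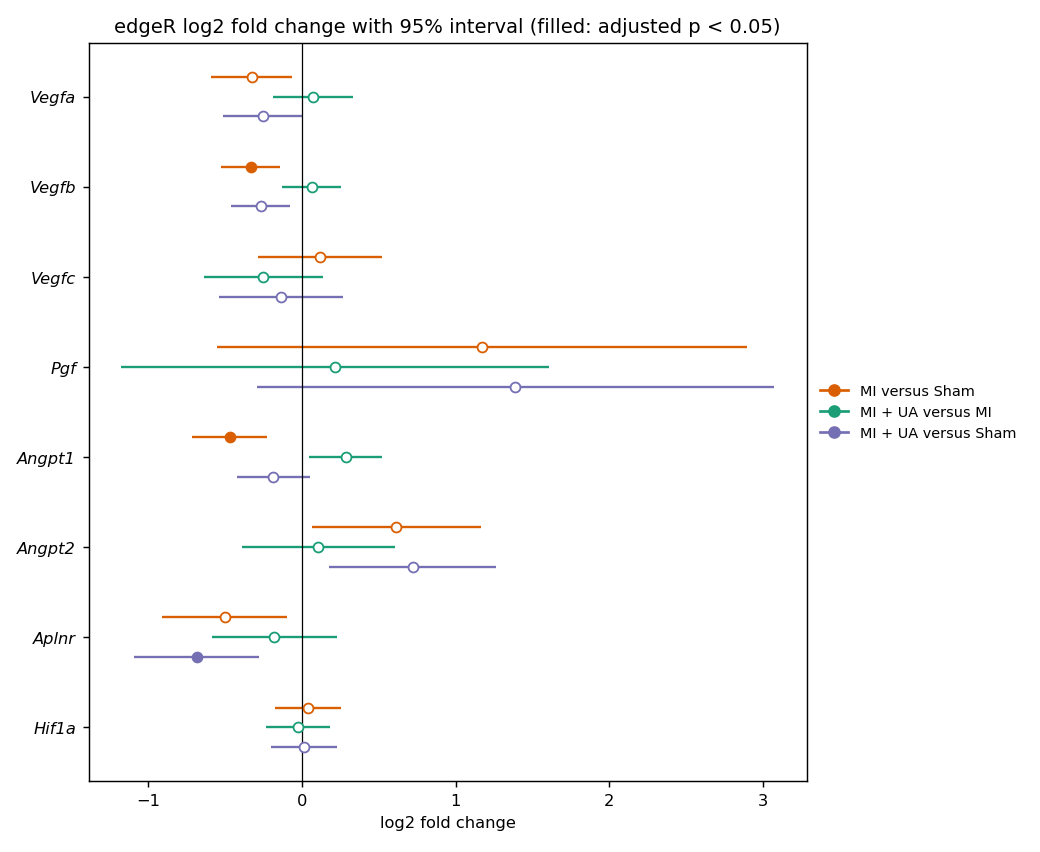
Log2 fold change of the 8 genes in the 3 comparisons, with edgeR's 95% interval as the line and a filled point for an adjusted p under 0.05. Filled points are Vegfb and Angpt1 in MI versus Sham and Aplnr in MI + UA versus Sham, and the Pgf intervals are the widest. The comparisons share rats and are not independent.

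Of the 8 receptors and receptor partners listed for these ligands, 7 were tested (Flt1 was not analysed here), and 2 changed with infarction in opposite directions, beside 11.4% of all genes called. Kdr, the main signalling receptor of Vegfa, was 158, 163, 150 and 137 CPM in Sham rats 12, 17, 32 and 38 and 129, 87.0, 107.5 and 107.1 CPM in MI rats 36, 57, 61 and 89. The groups did not overlap, and the log2 fold change was -0.50 (SE 0.11, edgeR adjusted p = 0.00342), held in all 8 fits that left out 1 rat. MI + UA rats had 102, 92.2, 118 and 111 CPM, which gave a difference of -0.02 from MI (95% interval -0.24 to 0.19) and of -0.52 from Sham (edgeR adjusted p = 0.00288). Flt4, the receptor of Vegfc and a lymphatic marker, rose from 8.52 ± 0.976 CPM in Sham to 11.7 ± 1.19 CPM in MI (SD, n = 4), a log2 fold change of 0.46 (SE 0.14, edgeR adjusted p = 0.0416). That call was lost in 6 of 8 fits, without Sham rats 12, 17 or 38 or MI rats 36, 57 or 89 (adjusted p 0.0657 to 0.118). In MI + UA, Flt4 was 11.1 ± 1.66 CPM (SD, n = 4), above Sham in every rat, with a log2 fold change of 0.37 against Sham (SE 0.14, edgeR adjusted p = 0.121).

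The other receptors did not pass in any comparison. Tek, the receptor of both angiopoietins, had log2 fold changes of -0.02 in MI versus Sham (95% interval -0.18 to 0.14) and -0.08 in MI + UA versus MI. Its partner Tie1 had -0.15 and -0.09, and Ptprb, the phosphatase that restrains Tek, had -0.01 and -0.04. The VEGF co-receptors Nrp1 and Nrp2 had -0.20 and -0.01 in MI versus Sham and 0.04 and -0.01 in MI + UA versus MI. The median of the 7 was -0.02 in MI versus Sham, -0.04 in MI + UA versus MI and -0.11 in MI + UA versus Sham.

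**Figure D4:**
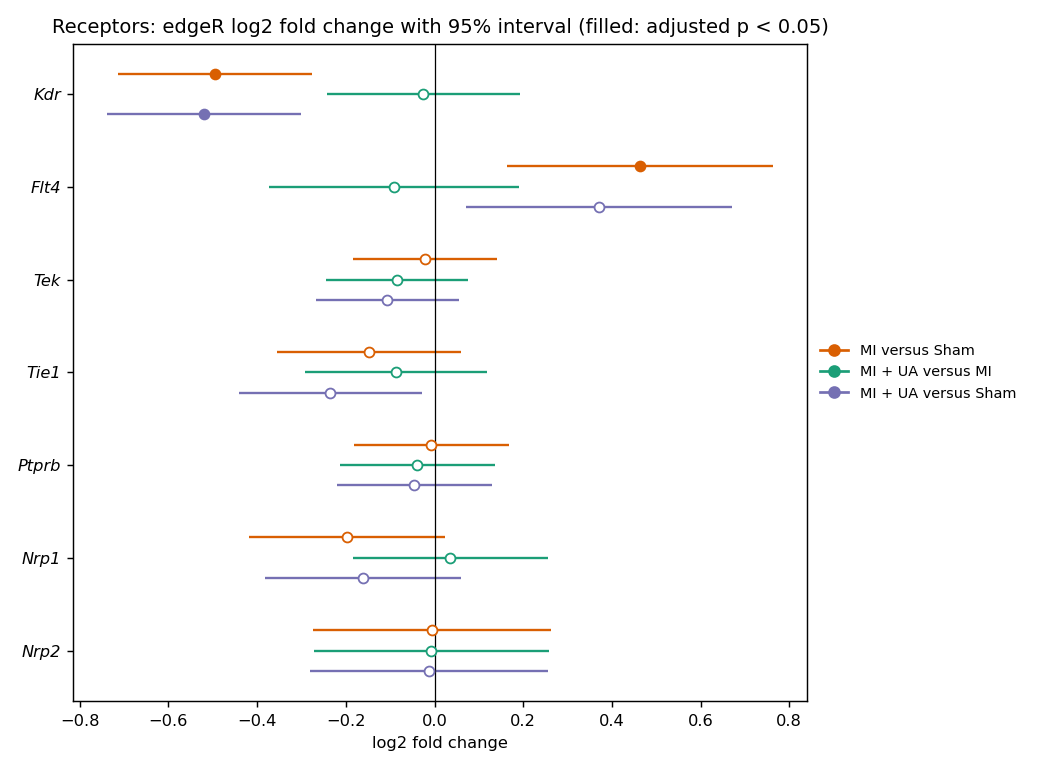
Log2 fold change of the 7 receptors tested in the 3 comparisons, with edgeR's 95% interval as the line and a filled point for an adjusted p under 0.05. Kdr is filled below 0 against Sham in both infarct groups, and Flt4 lies above 0 against Sham in both, filled in MI versus Sham only. The MI + UA versus MI intervals of all 7 receptors cover 0.

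Around Hif1a, the 12 symbols listed for HIF subunits, their hydroxylases and cofactors (13 rows, as Ep300 has 2) gave 2 calls in MI versus Sham, beside 11.4% of all genes. Egln1, the main oxygen-sensing prolyl hydroxylase, fell by 0.32 on the log2 scale (SE 0.09, edgeR adjusted p = 0.0257), from 39.3 ± 1.94 CPM in Sham to 31.3 ± 3.01 CPM in MI (SD, n = 4), without overlap. It was lost without Sham rat 17 or 32 or MI rat 61 or 89 (adjusted p 0.0553 to 0.0929). Arnt2, a dimer partner of HIF subunits best known in neurons, was scarce, at 0.304 ± 0.320 CPM in Sham and 1.48 ± 0.727 CPM in MI (SD, n = 4), and its log2 fold change of 2.29 (SE 0.71, edgeR adjusted p = 0.0393) was lost without Sham rats 12, 32 or 38 or MI rats 36, 61 or 89 (adjusted p 0.0640 to 0.127). The median of the list was 0.02.

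In MI + UA versus Sham, 3 of that list passed, beside 9.44% of all genes: Arnt2 was higher by 2.43 (edgeR adjusted p = 0.0319), Hif1an, the asparaginyl hydroxylase that limits HIF activity, fell by 0.32 (edgeR adjusted p = 0.0243) and Epas1, the endothelial HIF subunit, fell by 0.24 (edgeR adjusted p = 0.0440). Of the fits that left out 1 rat, 3 of 8 kept Arnt2, 4 of 8 kept Hif1an and 1 of 8 kept Epas1. Arnt2 was lost without Sham rat 12, 32 or 38 or MI + UA rat 58 or 64 (adjusted p 0.0677 to 0.112), and Hif1an without Sham rat 32 or 38 or MI + UA rat 29 or 58 (0.0731 to 0.0899). Epas1 was lost on leaving out any 1 of the 8 rats other than Sham rat 17 (0.0540 to 0.125), as well as with no filter (0.0735) and with rat 66 counted in MI (0.0603). In MI versus Sham, Hif1an and Epas1 had log2 fold changes of -0.27 (edgeR adjusted p = 0.0514) and -0.21 (edgeR adjusted p = 0.0673), and every MI rat lay below every Sham rat for both. Of the 13 rows, 4 were without overlap between MI and Sham, beside 15.7% of all genes tested. These were Egln1, Hif1an and Epas1, all lower, and 1 Ep300 row, higher in MI (85.1 to 92.6 CPM, against 80.0 to 84.9 CPM in Sham). None of the 13 was called between MI + UA and MI, where the median was 0.00.

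Of 26 known target genes of HIF listed, 24 were tested, and 1 was called in MI versus Sham, beside 11.4% of all genes, with 12 higher, 12 lower and a median log2 fold change of 0.01. That gene was Pdk1, a kinase that holds pyruvate out of the mitochondrial citric acid cycle. It fell from 137, 123, 129 and 133 CPM in Sham rats to 91.6, 91.1, 76.0 and 77.4 CPM in MI rats, a log2 fold change of -0.64 (SE 0.08, edgeR adjusted p = 5.09e-05), and stayed lower in MI + UA versus Sham (-0.53, SE 0.08). In MI + UA versus Sham 2 of the 24 were called, beside 9.44% of all genes. Ndrg1, a stress-responsive target, rose in MI + UA versus Sham by 0.63 on the log2 scale (SE 0.15, edgeR adjusted p = 0.00988). In MI versus Sham its difference was 0.38 (SE 0.15, edgeR adjusted p = 0.126), with every MI rat above every Sham rat. Of the 24 targets, 3 were without overlap between MI and Sham, beside 15.7% of all genes tested. Between MI + UA and MI, edgeR and DESeq2 called none of all genes, and the median of the 24 targets was 0.05.

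Among 15 other angiogenic factors, 14 were tested and 3 rose after infarction, beside 5.82% of all genes called higher, with a median of 0.11 over the list. Thbs1, thrombospondin 1, which restrains angiogenesis, went from 16.8, 15.3, 25.3 and 23.6 CPM in Sham rats to 67.8, 74.0, 126 and 65.3 CPM in MI rats, a log2 fold change of 2.04 (SE 0.23, edgeR adjusted p = 6.51e-06). Sema3a, a ligand of Nrp1 that competes with VEGF, rose by 1.53 (SE 0.23), and Igf1, a growth factor made by fibroblasts and macrophages, rose by 1.31 (SE 0.20). All 3 were called in MI + UA versus Sham as well, with log2 fold changes of 1.44, 1.04 and 1.15, and each held in all 8 fits that left out 1 rat in both comparisons. MI + UA rats had 43.8, 76.2, 62.7 and 38.9 CPM of Thbs1, and none of the list was called between MI + UA and MI.

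**Figure D5:**
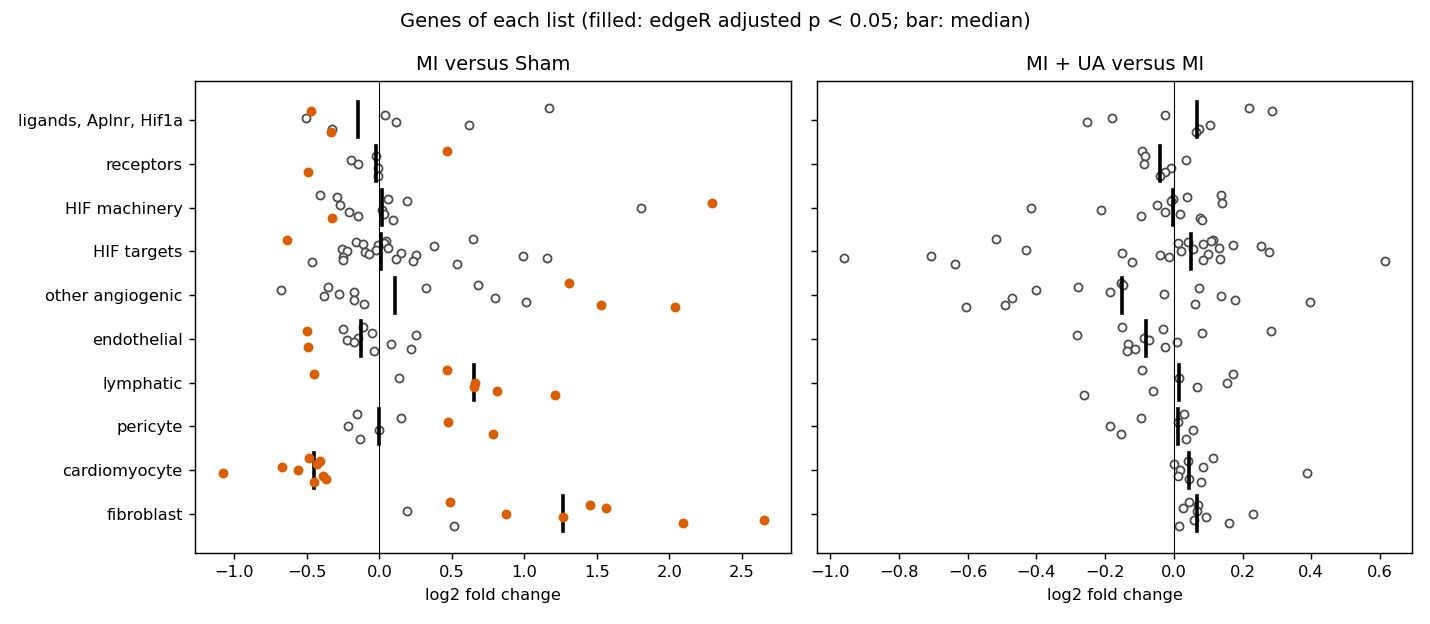
Log2 fold change of each tested gene of 10 lists in MI versus Sham (left) and MI + UA versus MI (right), with 1 point per gene, filled for an edgeR adjusted p under 0.05, and a bar at the median of the list. The horizontal scales differ. The 8 genes described here have a median of -0.14 on the left and 0.07 on the right, the cardiomyocyte points lie below 0 and the fibroblast points above 0 on the left, and no point is filled on the right.

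The genes whose levels ran most like each of 7 genes over the 12 rats were sought among 10930 genes, as a description. For Vegfa they were Vps13d, Bdnf and Adprhl1 (Pearson r from 0.94 to 0.93), for Vegfb Tmem38a, Tle5 and Gucd1 (0.94 to 0.93) and for Vegfc Mfsd5, Wbp11 and Gnl1 (0.85). For Angpt1 they were Ythdf1, Naa30 and Kbtbd4 (0.89 to 0.88) and for Angpt2 Nox4, Dync2h1 and Atxn7l2 (0.96 to 0.90). For Aplnr they were Txnrd2, Myct1 and Cxxc4 (0.94 to 0.93), and for Hif1a Manea, Ccdc8 and Lpar4 (0.88 to 0.84). The 12 points come from 3 groups and share each library's depth and scaling, and Pgf was too low to be included. Among all pairs of these 7 genes, the strongest over the same rats were Vegfb and Angpt2 (r = -0.90) and Vegfb and Vegfa (r = 0.69). The weakest was Vegfb and Vegfc (r = -0.0031).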

How the data were processed

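RNA of 12 rat hearts (4 Sham, 4 MI, 4 MI + UA) was sequenced as read pairs from strand-specific libraries after depletion of ribosomal RNA, although the sample labels give polyA RNA. Per the labels, the authors mapped reads to mRatBN7.2 with STAR 2.6.1c, summarised quality with MultiQC 1.8, and deposited raw htseq-count counts per Ensembl gene. The strand setting of the counting is not given in the sources used here, and no sequencing batch is named. Summary lines that name no gene (51.7% to 57.1% of each column) were left out.

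Genes with at least 10 counts in total over the 12 libraries were compared with edgeR 4.0.16 (R 4.3.3) by its quasi-likelihood test after TMM scaling, with all 3 groups in 1 fit, and p-values were Benjamini-Hochberg adjusted over all genes tested (threshold 0.05). Log2 CPM used a prior count of 1. Groups and replicate numbers came from the sample labels. Ratios between genes were compared with two-sided exact permutation tests (70 groupings, scipy 1.17.1). The scripts were tested on simulated data. Alternatives were DESeq2 1.42.0, DESeq2 size factors in edgeR, TMM without mitochondrially encoded genes, filterByExpr, no filter, rat 66 counted in MI, only the groups compared, other prior counts for the ratios, and leaving out each rat. After their values were seen, the called genes of the pathway and lymphatic lists and the receptors were run under them too. The genes described and all lists were chosen with earlier results of these data known.

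Named were the 10 genes, all listed receptors, the called genes of each pathway list (up to 4 by size of change) and, among genes with an average log2 CPM of at least 1, the 3 most correlated over 12 rats with each of the 10 that reached that level. Marker genes named beside these, and the lymphatic genes, were chosen after their values were seen. Marker lists covered endothelial, lymphatic, pericyte, smooth muscle, cardiomyocyte, fibroblast, macrophage and adipocyte genes, and pathway lists the receptors, HIF machinery, HIF targets and other angiogenic factors. Levels were not compared between genes, since transcript lengths of the same build were not used here. Figures were drawn with matplotlib 3.10.9. The depth limits the low genes: 3 counts correspond to 0.169 to 0.505 CPM, depending on the library.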

Additional observations from a re-analysis of the deposited data

Results flagged for a closer look

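In 33 groups of 4 rats (the log2 levels of 8 genes and the log2 values of 3 ratios, each in 3 groups), 2 had a lowest or highest rat whose gap to the next, divided by the whole range of the group, exceeded Dixon's 95% limit for 4 samples. Chance gives about 1 in 20 groups. The first was Vegfa in Sham, where rat 12 was lowest and the gap took 0.941 of the range. Its 361 CPM against 405 to 408 CPM in the other Sham rats is a small distance in a narrow group. The second was Aplnr in MI, where rat 57 was lowest with 22.9 CPM against 58.9 to 70.4 CPM in the others, a gap of 0.841 of the range. No cause was tested for either.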

How the results depend on the processing

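No paired analysis was possible because the replicate numbers are rat numbers and none recurs across groups. All alternatives listed above were run, and Pgf had no value under filterByExpr. With no filter on low counts, 4 of the 8 genes were called in MI versus Sham, and 3 of all genes in MI + UA versus MI. Without that filter 22587 genes were tested. Over all 7 other settings, 1913 to 2216 of all genes were called in MI versus Sham. Counting rat 66 in MI reversed several small differences between MI + UA and MI: Vegfa to -0.18, Vegfb to -0.013, Hif1a to 0.045, Nrp2 to 0.17, Ptprb to 0.022, and the log2 ratios Angpt2 to Angpt1 to 0.19, Vegfa to Vegfb to -0.13 and Pgf to Vegfa to 0.33. It also reversed Nrp2 in MI + UA versus Sham (0.095) and Vegfa to Vegfb in MI versus Sham (0.043) and in MI + UA versus Sham (-0.091), the last also with a prior count of 5 (-0.00032). The cause was not tested.

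Leaving out each rat gave, for MI versus Sham, 1 to 3 of the 8 genes called, beside 1468 to 1941 of 17938 to 18094 genes tested. It gave log2 fold changes of -0.051 to 0.22 for Vegfc, -0.043 to 0.093 for Hif1a, -0.057 to 0.11 for Nrp2, -0.069 to 0.051 for Ptprb, -0.054 to 0.023 for Tek, -0.28 to -0.11 for Nrp1 and -0.21 to -0.085 for Tie1. For MI + UA versus MI it gave 0 to 1 of all genes called, and -0.077 to 0.16 for Vegfa, 0.024 to 0.13 for Vegfb, -0.15 to -0.022 for Tie1, -0.13 to -0.052 for Tek, -0.18 to -0.042 for Flt4, -0.51 to 0.68 for Pgf, -0.054 to 0.28 for Angpt2, -0.087 to 0.015 for Hif1a, -0.11 to 0.073 for Kdr, -0.055 to 0.12 for Nrp1, -0.12 to 0.0997 for Nrp2 and -0.097 to 0.023 for Ptprb. For MI + UA versus Sham it gave 0 to 3 of the 8 genes called, beside 1155 to 1895 of 17879 to 18094 genes tested. It also gave -0.068 to 0.068 for Hif1a and -0.080 to 0.094 for Nrp2 there. The ratio Angpt2 to Angpt1 ranged from 0.86 to 1.34 (3 against 4 rats cannot reach an exact permutation p below 0.0571), and from -0.32 to 0.027 for MI + UA versus MI. Vegfa to Vegfb ranged from -0.097 to 0.069, -0.076 to 0.10 and -0.091 to 0.089 in the 3 comparisons, and Pgf to Vegfa from 0.92 to 1.91, -0.73 to 0.38 and 0.78 to 1.89. Prior counts of 0.25 and 5 gave Pgf to Vegfa 2.06 and 0.91 in MI versus Sham and 1.89 and 0.88 in MI + UA versus Sham. Read numbers were low for Pgf (0 to 17 per library), Angpt2 (11 to 132) and Vegfc (28 to 94).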

Other observations

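Lymphatic genes mark the vessels on which Vegfc acts. Of 7 tested, 6 were called in MI versus Sham, beside 11.4% of all genes, 5 higher and Prox1 lower, with a median log2 fold change of 0.65. Lyve1, a hyaluronan receptor of lymphatic vessels that some macrophages also carry, had 9.03, 9.53, 15.5 and 16.7 CPM in Sham rats and 18.1, 34.7, 33.8 and 31.8 CPM in MI rats, a log2 fold change of 1.21 (SE 0.20, edgeR adjusted p below the threshold in all 8 fits that left out 1 rat). Ccl21, a chemokine of lymphatic endothelium, rose by 0.81 (SE 0.20), Reln by 0.66 (SE 0.17) and Mmrn1 by 0.65 (SE 0.19), the last lost in 4 of 8 fits, without Sham rat 17 or 38 or MI rat 36 or 61 (adjusted p 0.0596 to 0.122). Flt4 was the fifth. Prox1, a lymphatic transcription factor also expressed in heart muscle, fell by 0.45 on the log2 scale (SE 0.11). Of 8 macrophage markers 6 rose as well, beside 5.82% of all genes, with summed levels of 70.5 to 80.6 CPM in Sham and 126 to 168 CPM in MI. In MI + UA versus Sham 7 of the 8 rose, beside 5.16% of all genes, with sums of 116 to 200 CPM in MI + UA. The part of these markers in the Lyve1 difference was not tested. In MI + UA versus Sham 4 of the 7 lymphatic genes were called, all higher (Ccl21, Lyve1, Mmrn1 and Reln), beside 9.44% of all genes (5.16% higher). Ccl21 was lost without Sham rat 17 (adjusted p = 0.0692) or MI + UA rat 64 (0.0664), and Mmrn1 without Sham rat 38 (0.0862) or MI + UA rat 58 (0.0688). Between MI + UA and MI none were called by edgeR, as for all genes.

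Cells around the vessel, a known source of Angpt1, gave a mixed picture. Of 7 pericyte markers 2 rose in MI versus Sham, Pdgfrb by 0.78 (SE 0.10) and Mcam by 0.48 (SE 0.13), beside 5.82% of all genes. Called or not, 3 of the 7 were higher and 4 lower, with a list median of 0.00. Summed levels were 978 to 997 CPM in Sham and 934 to 1050.1 CPM in MI. In MI + UA versus Sham 3 of the 7 were called, 2 higher and 1 lower, beside 9.44% of all genes. Of 5 smooth muscle markers 3 rose in MI versus Sham, beside 5.82% of all genes called higher, with a median of 0.56. In MI + UA versus Sham 0 of the 5 were called, beside 9.44% of all genes, with a median of 0.35. Of 4 adipocyte markers tested none passed in MI versus Sham, beside 11.4% of all genes. In MI + UA versus Sham 1 passed, beside 9.44% of all genes (4.27% lower). This was Fabp4, a lipid carrier that capillary endothelium also expresses, which fell by 0.54 (SE 0.11). The other 3 had higher values than Sham in that comparison and did not pass. The summed level of the list, most of it Fabp4, was 111 to 151 CPM in Sham, 98.3 to 127 CPM in MI and 85.7 to 107.8 CPM in MI + UA.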
